A study of Mus musculus with 2 samples.

Results

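The nuclear-encoded genes of oxidative phosphorylation (OXPHOS) were examined in small intestinal organoids treated with NRG1, EREG or EGF. They were taken as every protein-coding gene of the count table whose symbol begins with Ndufa, Ndufb, Ndufc, Ndufs, Ndufv, Uqcr, Cox4 to Cox8 or Atp5, or is Sdha, Sdhb, Sdhc or Sdhd, and which had at least 5 counts in all. Of 31053 genes, 94 matched these symbols, and 89 remained. Those below 5 counts were Cox4i2, Cox8b and Cox8c with 0 counts, Cox7b2 with 2 counts and a second identifier of Atp5o with 0 counts. The 89 genes comprised 46 of complex I, 4 of complex II, 8 of complex III, 14 of complex IV and 17 of complex V, the ATP synthase. The symbols also brought in 11 genes that are not subunits: the 8 Ndufaf assembly factors, Ndufa4l2, Cox7a2l and Atp5s.

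The organoids were grown from intestinal crypts of C57BL/6J wild-type mice, with 1 mouse for each of 2 experiments, so that experiment, mouse and culture cannot be told apart. They were kept for 3 days in ENR medium (EGF at 50 ng/ml, Noggin and R-spondin 1), deprived of EGF for 24 h, and then given NRG1, EREG or EGF at 100 ng/ml for 24 h. NRG1 (neuregulin 1) binds the receptor ERBB3, whereas EREG (epiregulin) and EGF bind EGFR. Each ligand had 3 libraries in each experiment, 18 libraries in all, and EGF was the control ligand. The sources do not say that the 3 libraries came from separate cultures, so the p-values measure the spread between these libraries, which may be technical. The replicates numbered 2 formed 1 sequencing pool, and those numbered 1 and 3 were sequenced together in the other.

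The respiratory chain sits in the inner mitochondrial membrane. Complex I takes electrons from NADH and complex II takes them from succinate, complex III passes them to cytochrome c, and complex IV hands them to oxygen, while the protons pumped on the way drive the ATP synthase. All subunits of complex II and most subunits of the other complexes are encoded in the nucleus, and the rest are encoded by mitochondrial DNA. In the gut, oxidative metabolism is high both in absorptive enterocytes and in crypt stem cells, and Paneth cells rely more on glycolysis.

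The libraries held between 1311420 and 1891243 UMIs (unique molecular identifiers, each standing for 1 captured mRNA molecule), and 12141 to 13024 genes were detected in each. Summed epithelial markers lay at 2284 to 3820 CPM (counts scaled to a common library total) in every library. Fibroblast markers reached at most 8.39 CPM, immune markers 7.88 CPM, endothelial markers 2.84 CPM and muscle markers 11.6 CPM, and Cd3e, Cdh5 and Des were at 0 throughout. The tags were counted at the 3′ end, where each mRNA gives 1 tag, so levels could be compared between genes without a length correction. Levels are given as normalized counts, UMI counts scaled for library size by the trimmed mean of M values (TMM).

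OXPHOS mRNAs were abundant in all 18 libraries. The 89 genes took 5.51 to 5.70% of all UMIs in NRG1 organoids (median 5.59%), 5.54 to 5.87% in EREG organoids (median 5.70%) and 5.59 to 5.87% in EGF organoids (median 5.78%). Of the 89 genes, 68 were among the 1000 most abundant genes, 79 had a mean of at least 100 normalized counts, and 6 had under 50. The median gene had 837 normalized counts.

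The leading gene of complex IV was Cox4i1, which encodes the structural subunit that binds the catalytic core. Its mean was 5765 normalized counts, rank 27 among all genes, and it held 25.1% of the complex IV total. Atp5b, the catalytic beta subunit of the ATP synthase, averaged 3527 normalized counts. Uqcrq, a small subunit of complex III, averaged 2484. Ndufa6, an accessory subunit of complex I, averaged 2366, and Sdhb, the iron-sulfur subunit of succinate dehydrogenase, averaged 1594 and led complex II (chr4:140961203-140979193, GRCm38, plus strand).

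Where a subunit has isoforms, the common one was far above the one known from muscle or other tissues. Cox6a1 averaged 3621 normalized counts and Cox6a2, the heart and skeletal muscle form, averaged 9.02, a ratio of 401. Cox6b1 stood at 2093 and the testis form Cox6b2 at 15.9. Cox7a2 stood at 2152 and Cox7a1, the heart and muscle form, at 140. Ndufa4 stood at 1753 and its hypoxia-induced paralog Ndufa4l2 at 24.9. The c ring of the ATP synthase is encoded by 3 genes for the same mature protein, and Atp5g3 led with 2404 normalized counts, ahead of Atp5g1 with 378 and Atp5g2 with 9.36. Atp5g1 and Atp5g2 are uncertain, as 41.6% and 46.0% of the 61-base windows of their last 500 bases also occur in pseudogenes or other genes. In all, 17 of the 89 genes shared over 10% of such windows.

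Many OXPHOS promoters hold sites for the nuclear respiratory factor NRF1, and some hold sites for YY1 or for the estrogen-related receptors (ERR), the partners of PGC-1alpha. RefSeq start sites on GRCm38.p6 were matched for 72 of the 89 genes, and windows of 250 bases before to 50 bases after the start were searched on both strands. Matches of different motifs were counted separately, also where they overlapped. For comparison, 10172 protein-coding genes with at least 5 counts and a matched start were taken, whether or not they passed the filter for testing. The palindrome for NRF1, GCGC followed after any 2 bases by GCGC, was present in 21 of the 72 promoters (29.2%). It was present in 14.5% of the 10172 comparison genes and 6.23% of all 32851 windows. AAGATGGC, for YY1, was present in 10 (13.9%), against 5.17% of comparison genes and 2.75% of all windows. TCAAGGTCA, for ERR, was present in 2 (2.78%), against 0.315% of comparison genes and 0.423% of all windows. CCGGAAG, for ETS factors, was present in 18, against 19.6% of comparison genes and 8.86% of all windows. GGGCGG, for Sp1, was present in 44.4% against 67.7% of comparison genes and 35.7% of all windows. The CRE, E-box and CCAAT motifs were also searched. They were present in 5.56%, 6.94% and 44.4% of the 72, against 3.54%, 11.7% and 43.1% of comparison genes. Among the 2323 promoters of tested genes with a mean of at least 100 normalized counts, 17.7% held the NRF1 palindrome and 24.3% the ETS motif. There the YY1, ERR and Sp1 motifs were present in 6.76%, 0.215% and 69.7%. These matches are descriptions of the letters and do not show binding.

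The sites shown are those of genes described in the following paragraphs, each with the motif in capitals, read 5′ to 3′ on the strand of the gene. Ndufaf4 and Ndufa8 are complex I genes called lower with NRG1 in at least 1 comparison, Sdha and Uqcrc1 are higher and Atp5k is lower in experiment 2, and all carry the NRF1 palindrome at chr4:24897960-24897989 (plus strand), chr2:36049349-36049378 (minus), chr13:74350276-74350305 (minus), chr9:108936643-108936672 (plus) and chr5:108434430-108434459 (minus). Sdha and Uqcrc1 hold more than 1 palindrome each, and 1 is shown. For NRG1 against EGF over both experiments, 0 of the 21 genes with an NRF1 palindrome were called higher and 1 lower. Of the 51 genes without one, 1 was higher and 2 were lower. Of all tested genes 5.93% were higher and 5.38% lower. A link between motif and response was not tested. Ndufs7 is higher and Atp5j is lower in experiment 2, and both carry the YY1 motif, at chr10:80249462-80249491 (plus) and chr16:84835046-84835075 (minus). Atp5g3 is the leading c ring gene and carries the ERR motif in reverse complement at chr2:73911359-73911388 (minus).
Ndufaf4: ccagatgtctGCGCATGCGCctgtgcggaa
Ndufa8: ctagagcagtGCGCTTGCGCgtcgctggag
Sdha: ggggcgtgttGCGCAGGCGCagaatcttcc
Uqcrc1: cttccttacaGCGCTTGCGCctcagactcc
Atp5k: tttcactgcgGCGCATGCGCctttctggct
Ndufs7: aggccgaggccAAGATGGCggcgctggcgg
Atp5j: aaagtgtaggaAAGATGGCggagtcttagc
Atp5g3: tgttacaaagTGACCTTGAgcgtcttcccc

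To compare whole complexes, the counts of their genes were summed in each library. In experiment 2, complex I took 1.82, 1.84 and 1.84% of UMIs with NRG1, against 1.90, 1.93 and 1.97% with EGF. Complex III took 0.619, 0.623 and 0.637% with NRG1, against 0.656, 0.658 and 0.668% with EGF. Complex V took 1.43, 1.44 and 1.51% with NRG1, against 1.53, 1.54 and 1.57% with EGF. In these 3 complexes every NRG1 library of experiment 2 was below every EGF library, with ratios of 0.948, 0.948 and 0.945, and the same held for all 89 genes together (ratio 0.958). In experiment 1 the NRG1 and EGF libraries overlapped in all 5 complexes. The separation depended on the scale: on TMM-normalized counts the NRG1 and EGF sums overlapped in every complex in both experiments, and complex I had ratios of 0.981 in experiment 2 and 0.978 in experiment 1. The NRG1 libraries of experiment 2 also stood apart from the EGF libraries in other measures. They held 1311420 to 1480092 UMIs against 1486253 to 1582696 with EGF, and 12141 to 12278 detected genes against 12536 to 12592. Malat1, a nuclear RNA, took 0.170 to 0.171% of UMIs with NRG1 against 0.0774 to 0.0844% with EGF, and mitochondrially encoded RNA took 0.565 to 0.578% against 0.596 to 0.604%. Their part in the OXPHOS shares was not tested. The plot of summed shares shows each library.

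**Figure D1:**
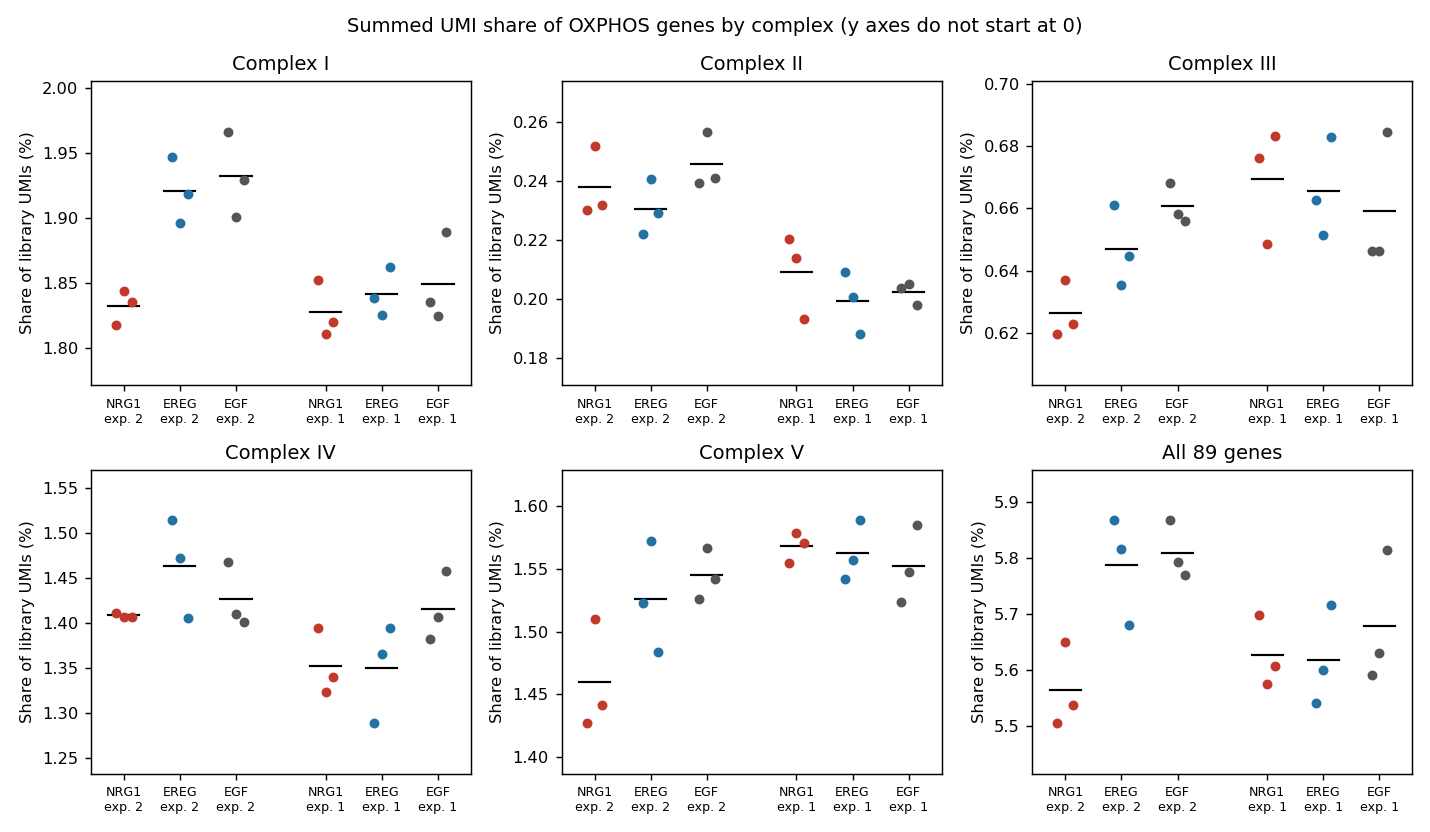
Share of each library's UMIs taken by the genes of each OXPHOS complex and by all 89 genes, in percent, for NRG1 (red), EREG (blue) and EGF (grey) organoids of experiments 2 and 1. Points are the 3 libraries of a group and lines their mean. In experiment 2 the NRG1 libraries lie below the EGF libraries for complexes I, III and V, and complex II is higher in experiment 2 with each ligand.

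Gene by gene, few OXPHOS mRNAs differed between NRG1 and EGF organoids. Of 89 genes, 4 passed the test over both experiments (edgeR quasi-likelihood, Benjamini-Hochberg adjusted p under 0.1), 1 higher and 3 lower with NRG1. That is 4.49% of the OXPHOS genes, while 11.3% of all 12159 tested genes passed (5.93% higher and 5.38% lower), and 22.1% of those with a mean of at least 100 normalized counts. The median log2 fold change was −0.02 for the OXPHOS genes and −0.01 for all tested genes. For 82 of the 89 genes the fold change lay within 0.25 on the log2 scale, and for 83 (93.3%) the 95% confidence interval lay within 0.5, against 32.1% of all tested genes and 80.2% of those of higher abundance. By ranges, Ndufb6 was above and Ndufb9 and Ndufb10 were below EGF without overlap in both experiments, which is 3.37% of the OXPHOS genes and 5.03% of all tested genes. Ndufb9 shares 14.3% of its 3′ windows with another gene.

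Ndufb6 encodes an accessory subunit of the membrane arm of complex I (ENSMUSG00000071014, chr4:40270591-40279421, minus strand). In experiment 1 it had 841, 815 and 909 normalized counts with NRG1, against 686, 726 and 684 with EGF. In experiment 2 it had 860.3, 1047 and 847 with NRG1, against 742, 798 and 796 with EGF. The 2 ligands did not overlap in either experiment, and Ndufb6 was higher with NRG1 by 0.27 ± 0.075 on the log2 scale (SE, edgeR adjusted p = 0.0152).

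Uqcrh encodes the hinge protein of complex III, a small subunit at the docking site of cytochrome c1 and cytochrome c (ENSMUSG00000063882, chr4:116066965-116075071, minus strand). In experiment 1 it had 1510.3, 1523 and 1566 normalized counts with NRG1, against 1713, 1837 and 1887 with EGF. In experiment 2 it had 1373, 1544 and 1303 with NRG1, against 1714, 1859 and 1500.4 with EGF. The groups were apart in experiment 1, and in experiment 2 the highest NRG1 library passed the lowest EGF library. Uqcrh was lower with NRG1 by −0.25 ± 0.071 on the log2 scale (edgeR adjusted p = 0.0140), and 2.5% of its 3′ windows occur in the pseudogene Uqcrh-ps1.

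Ndufaf4 encodes an assembly factor of complex I (chr4:24898083-24905001, plus strand) and Ndufa1 an accessory subunit encoded on the X chromosome. Ndufaf4 had 174, 187 and 203 normalized counts with NRG1 in experiment 1, against 219, 215 and 199 with EGF. In experiment 2 it had 92.1, 127 and 105 with NRG1, against 142, 147 and 143 with EGF, with no overlap there. Ndufaf4 was lower with NRG1 by −0.27 ± 0.099 on the log2 scale (edgeR adjusted p = 0.0791).

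Ndufa1 in experiment 1 had 385, 228 and 347 normalized counts with NRG1, against 408, 364 and 418 with EGF. In experiment 2 it had 372, 302 and 367 with NRG1, against 431, 315 and 377 with EGF. The groups overlapped in both experiments, and replicate 2, sequenced in its own pool, was the lowest library of its group with every ligand in both experiments. Ndufa1 was lower with NRG1 by −0.22 ± 0.083 on the log2 scale (edgeR adjusted p = 0.0871). Leaving out single libraries ended the call of Ndufa1 in 12 of 18 cases and that of Ndufaf4 in 9 of 18, while Ndufb6 and Uqcrh passed in all 18. The count of 4 became 2 without replicate 2 of the NRG1 libraries, or replicate 1 or 2 of the EGF libraries, of experiment 1, and without replicate 3 of the NRG1 libraries of experiment 2. It was 0 within the pool of replicates 1 and 3, and it was 2 (Ndufb6 and Uqcrh) without the replicate number in the model.

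**Figure D2:**
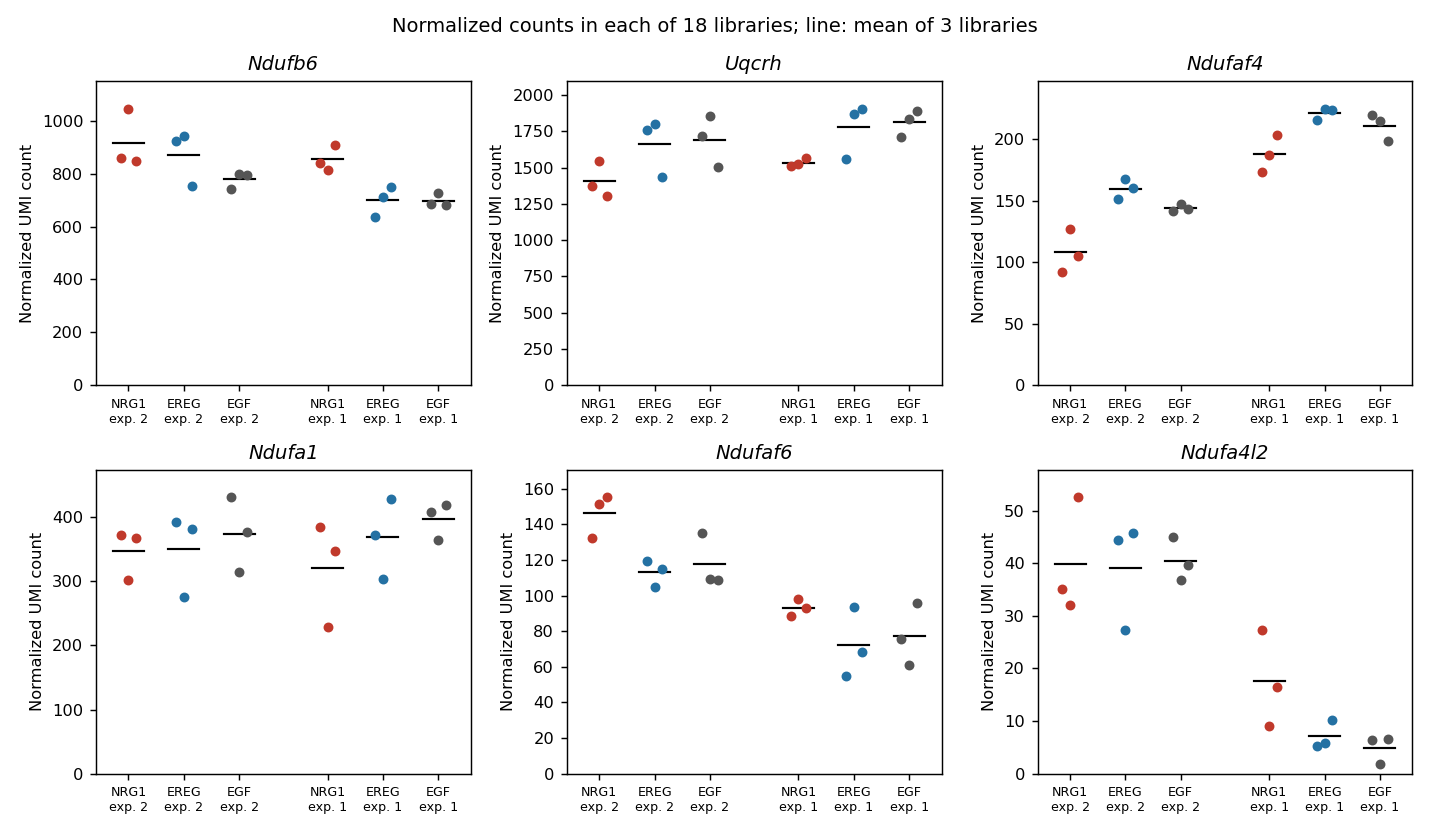
Normalized UMI counts of Ndufb6, Uqcrh, Ndufaf4, Ndufa1, Ndufaf6 and Ndufa4l2 in each of the 18 libraries, by ligand (NRG1 red, EREG blue, EGF grey) and experiment. Points are libraries and lines the mean of 3. Ndufb6 is higher and Uqcrh lower with NRG1 in both experiments, and Ndufa4l2 with NRG1 is above EGF in experiment 1 and overlaps it in experiment 2.

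None of the nuclear-encoded core subunits was called over both experiments. By the same test 3 core subunits encoded by mitochondrial DNA were lower with NRG1, and the response of each differed between the experiments. Those 3 are described in the paragraph on the mitochondrially encoded mRNAs. For Ndufs1 and Ndufv1, core subunits of the NADH-oxidizing arm of complex I, the fold changes were −0.03 (95% interval −0.24 to 0.17) and 0.19 (0.02 to 0.36, adjusted p = 0.12, edgeR). Sdha and Sdhb, which together form the succinate-oxidizing head of complex II, each stood at 0.05 (intervals −0.11 to 0.21 and −0.10 to 0.20). Uqcrc1, a core protein of complex III, stood at 0.06 (−0.11 to 0.23) and Uqcrfs1, the Rieske iron-sulfur protein, at 0.03 (−0.12 to 0.19). In complex IV, whose catalytic core is encoded by mitochondrial DNA, the structural subunit Cox4i1 stood at −0.14 (−0.28 to 0.01) and Cox5a, a structural subunit on the matrix side, at 0.06 (−0.09 to 0.21). Atp5a1, Atp5b and Atp5c1, the alpha, beta and gamma subunits of the F1 part, stood at 0.07, 0.13 and −0.08, and no interval of these genes reached 0.5 in size. None of the 4 genes of complex II, 14 of complex IV and 17 of complex V passed, while 3 of 46 passed in complex I and 1 of 8 in complex III. Of the 20 and 39 other genes of the chain and its assembly measured outside the symbols, Gpd2 was higher and Cox20 and Uqcc3 were lower, as described in the paragraph on other mitochondrial genes.

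**Figure D3:**
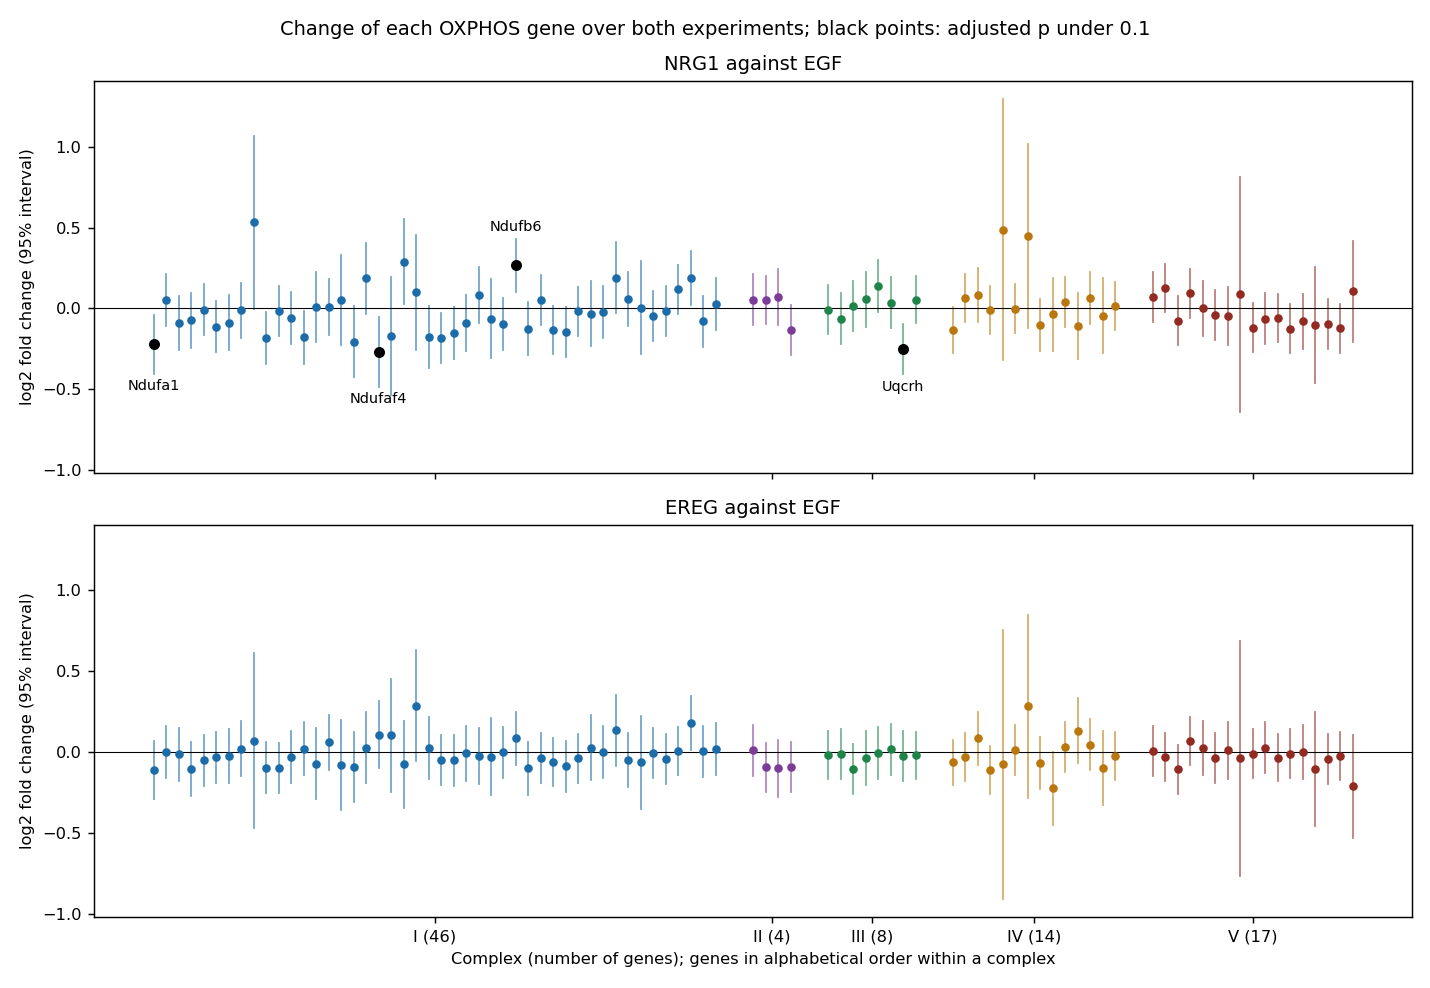
Log2 fold change of each of the 89 OXPHOS genes with its 95% confidence interval, for NRG1 against EGF (upper panel) and EREG against EGF (lower panel) over both experiments, genes grouped by complex. Black points have an adjusted p under 0.1, which are Ndufb6, Uqcrh, Ndufaf4 and Ndufa1 with NRG1 and no gene with EREG. Wide intervals belong to the genes with few counts, such as Cox6a2 and Atp5g2.

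Cell type markers moved in the same libraries, where 11.3% of all tested genes passed for NRG1 against EGF. With NRG1, 4 of 4 Paneth cell markers were lower, with sums of 17515 to 22227 CPM in NRG1 organoids against 26190.1 to 29649 CPM in EGF organoids. Of 5 stem cell markers 4 were lower, with sums of 1334 to 1550.2 CPM (experiment 1) and 411 to 453 CPM (experiment 2) in NRG1 organoids, against 2086 to 2321 and 516 to 553 CPM in EGF organoids. Of 4 goblet cell markers 3 were lower, with sums of 2641 to 3179 CPM (experiment 1) and 3213 to 3589 CPM (experiment 2) in NRG1 organoids, against 2751 to 3206 and 4893 to 5452 CPM in EGF organoids, so that they were apart in experiment 2 and overlapped in experiment 1. Of 8 enterocyte markers 3 were higher. Enterocyte sums were 16914 to 19663 CPM (experiment 1) and 19967 to 21346 CPM (experiment 2) in NRG1 organoids. In EGF organoids they were 16072 to 17912 and 14233 to 15211 CPM, so that they overlapped in experiment 1 and were apart in experiment 2. Of 3 enteroendocrine markers 1 was lower, of 4 cycling markers 1 was lower, and of 4 epithelial markers 2 were higher. Their part in the OXPHOS values was not tested, and in whole organoids fewer cells of a type and less RNA per cell cannot be told apart.

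Within single experiments, NRG1 against EGF gave 9 called OXPHOS genes each time, and Ndufb6 and Uqcrh were called in both. These counts depended on the replicate number in the model: without it 1 gene passed in experiment 1 (Ndufa4l2) and 0 in experiment 2. Ndufb6 then had an edgeR adjusted p of 0.147 in experiment 1 and 0.222 in experiment 2, and Uqcrh 0.243 and 0.116. In experiment 1, 9 of 89 genes passed (9.75% of all tested genes did, 5.01% higher and 4.75% lower), 4 higher and 5 lower. The higher ones were Ndufb6, Uqcrc2 (a core protein of complex III, 0.28 ± 0.087), Atp5a1 (0.21 ± 0.080) and Ndufa4l2. The lower ones were Ndufa1 (−0.33 ± 0.102), Ndufb11 (a complex I accessory subunit, −0.28 ± 0.092), Cox6c (a small complex IV subunit, −0.26 ± 0.082), Cox4i1 (−0.23 ± 0.078) and Uqcrh (−0.24 ± 0.082). Their edgeR adjusted p-values lay between 0.00288 and 0.0844. Ndufb11 shares 11.1% of its 3′ windows with a pseudogene. Leaving out single libraries gave between 2 and 12 called genes, with 5 if EGF replicate 1 was left out, 2 if EGF replicate 2, 3 if EGF replicate 3 or NRG1 replicate 2, and 4 if NRG1 replicate 3.

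In experiment 2, 9 of 89 genes passed (8.99% of all tested genes did, 5.32% higher and 3.67% lower), 2 higher and 7 lower. Ndufv1, the flavoprotein subunit that binds NADH, was higher (0.29 ± 0.091) along with Ndufb6 (0.23 ± 0.085). The lower ones were Uqcrh (−0.26 ± 0.079), Atp5g3 (−0.24 ± 0.076), Ndufaf4 (−0.42 ± 0.147) and the complex I accessory genes Ndufb10 (−0.25 ± 0.086), Ndufa8 (−0.26 ± 0.090), Ndufc1 (−0.24 ± 0.084) and Ndufa5 (−0.24 ± 0.089), with edgeR adjusted p-values of 0.0164 to 0.0788 for all 9. The split of 2 higher and 7 lower was 5 and 5 with DESeq2 size factors and 1 and 8 with library totals alone. Leaving out single libraries gave between 0 and 13 called genes, with 4 if EGF replicate 1 was left out, 0 if EGF replicate 2, 3 if EGF replicate 3, 1 if NRG1 replicate 2, 2 if NRG1 replicate 3 and 5 if EREG replicate 2.

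The difference between the 2 experiments was itself tested, and 1 OXPHOS gene passed, Ndufa4l2 (1.45% of all tested genes passed, 0.748% with a lower response in experiment 2). Ndufa4l2 is a hypoxia-induced paralog of Ndufa4 that is not a subunit of complex I (chr10:127514967-127517154, plus strand). Its raw counts were 25, 11 and 19 with NRG1 in experiment 1, against 7, 2 and 8 with EGF. In experiment 2 they were 27, 25 and 44 with NRG1, against 41, 34 and 35 with EGF. The NRG1 libraries were all above the EGF libraries in experiment 1 and overlapped them in experiment 2. Ndufa4l2 was higher with NRG1 by 1.79 ± 0.456 in experiment 1 (edgeR adjusted p = 0.00288), and the response of experiment 2 was lower by −1.80 ± 0.494 than that of experiment 1 (adjusted p = 0.0482). This call was lost without NRG1 replicate 1 or EGF replicate 2 of either experiment, with an adjusted p of up to 0.242. It was also lost without the replicate number in the model (adjusted p = 0.113).

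EREG and EGF organoids did not differ detectably in any OXPHOS gene over both experiments. None of the 89 genes passed (edgeR), DESeq2 also called 0, and 2 had an unadjusted p under 0.05, Ndufv1 (0.18 ± 0.076) and Cox7a1 (−0.22 ± 0.103). Among all tested genes, 0.00822% passed. The 95% interval lay within 0.5 for 83 of 89 genes (93.3%), against 41.3% of all tested genes, and the median log2 fold change was −0.02.

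Within experiment 1, 0 of 89 genes passed for EREG against EGF (0.0164% of all tested genes did), with 1 at an unadjusted p under 0.05 and 0 by DESeq2. Within experiment 2, 4 passed (2.89% of all tested genes did, 1.19% higher and 1.7% lower). Ndufv1 had 692, 655 and 608 normalized counts with EREG in experiment 2, against 523, 522 and 524 with EGF, with no overlap (log2 fold change 0.32 ± 0.089, edgeR adjusted p = 0.0258). Cox7a2l, a factor that joins complexes III and IV into supercomplexes, was also higher (0.32 ± 0.104). Sdhc, a membrane anchor of complex II, was lower (−0.29 ± 0.087), as was Ndufa12, a complex I accessory subunit that shares 23.4% of its 3′ windows with a pseudogene (−0.27 ± 0.084). This count became 0 without replicate 1 or 2 of the EREG or the EGF libraries, 2 without NRG1 replicate 3 and 13 without EREG replicate 3, and it was 0 without the replicate number in the model.

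NRG1 against EREG gave 4 called genes of 89 (11.3% of all tested genes passed, 6.53% higher and 4.75% lower), 1 higher and 3 lower with NRG1. Both comparisons of NRG1 share the NRG1 libraries. Ndufaf4 had 215, 225 and 223 normalized counts with EREG in experiment 1 and 151, 168 and 159.8 in experiment 2, so that the NRG1 libraries given earlier were below in both experiments (−0.38 ± 0.098, edgeR adjusted p = 0.00717). Uqcrh was lower by −0.23 ± 0.071 (adjusted p = 0.0316). Ndufa8, an accessory subunit of complex I, was lower by −0.20 ± 0.075 (adjusted p = 0.0866). Leaving out single libraries ended the call of Ndufa8 in 15 of 18 cases (adjusted p of up to 0.229), and 6 of 13 other alternatives kept it. The call of Uqcrh was lost in 4 of 18 cases, that of Ndufaf6 in 3 and that of Ndufaf4 in 0.

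Ndufaf6, another assembly factor of complex I, had 88.4, 98.2 and 93.2 normalized counts with NRG1 in experiment 1, against 54.9, 93.5 and 68.3 with EREG. In experiment 2 it had 132, 152 and 155 with NRG1, against 119, 105 and 115 with EREG, with no overlap there. Ndufaf6 was higher with NRG1 by 0.36 ± 0.121 (edgeR adjusted p = 0.0479). Ndufaf4 and Ndufaf6 thus differed in direction between the same libraries. The count of 4 became 2 without NRG1 replicate 2 or EREG replicate 3 of experiment 1 and 9 without NRG1 replicate 1 of experiment 2.

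The same genes were compared between the experiments. In EGF organoids, 42 of 89 genes passed for experiment 2 against experiment 1, 31 higher and 11 lower, while 33.5% of all tested genes passed (17.2% higher and 16.3% lower) and 56.2% of those of higher abundance. The median log2 fold change was 0.12 for the OXPHOS genes and −0.01 for all tested genes. With library totals alone the split was 26 higher and 19 lower, and the median of all tested genes was then −0.11. With EREG 39 and with NRG1 43 of 89 genes passed. Of all tested genes 34.1% passed with EREG (17.4% higher and 16.7% lower) and 33.1% with NRG1 (16.8% higher and 16.4% lower). Over the 3 ligands, 19 genes were called higher and 5 lower each time and 0 in opposite directions. Calls with all 3 ligands made up 27.0% of the OXPHOS genes and 16.9% of all tested genes. This share was not computed for the genes of higher abundance, to which 79 of the 89 OXPHOS genes belong.

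The sum of the 4 complex II genes was higher in experiment 2 with every ligand on both scales. Its share of UMIs was 1.14 times that of experiment 1 with NRG1, 1.16 times with EREG and 1.22 times with EGF, and the libraries of the 2 experiments did not overlap. On normalized counts these ratios were 1.276, 1.247 and 1.304. Other sums depended on the scale. With EGF, complexes III, IV and V were above experiment 1 on normalized counts (1.076, 1.081 and 1.068) and overlapped on UMI share (1.003, 1.008 and 0.995). Complex I with EGF was above on both (1.121 on normalized counts, 1.045 on share). With NRG1 the shares of complexes III and V were below experiment 1 (0.936 and 0.931). Sdhb had 1881, 2021 and 1844 normalized counts with EGF in experiment 2, against 1323, 1360.3 and 1251 in experiment 1. The groups did not overlap, and Sdhb was higher by 0.55 ± 0.089 (edgeR adjusted p = 3.49e-07). Sdha was higher by 0.42 ± 0.095 and Sdhc by 0.53 ± 0.0998, and all 3 were also higher with NRG1, while with EREG Sdha and Sdhb were. Sdhd, the other membrane anchor, did not pass with any ligand and had 671, 681 and 673 normalized counts with EGF in experiment 2, against 688, 815 and 737 in experiment 1 (−0.14 ± 0.093, adjusted p = 0.265).

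In complex I, 15 genes were higher and 6 lower. Ndufa6 had 3257, 2840.4 and 3194 normalized counts with EGF in experiment 2, against 1714, 1639.7 and 1942 in experiment 1, and was higher by 0.81 ± 0.090 (edgeR adjusted p = 8.42e-13). Ndufs7, a core subunit that carries an iron-sulfur cluster near the quinone site, was higher by 0.57 ± 0.091, and 4 of 7 core subunits were higher with none lower (Ndufs7, Ndufs8, Ndufv1 and Ndufv2). Of 28 accessory subunits, 9 were higher, among them Ndufa7 (0.53 ± 0.094), and 2 were lower, Ndufa5 (−0.46 ± 0.094) and Ndufb2 (−0.26 ± 0.103). Ndufab1, an accessory subunit counted apart from these 28 because it is also the mitochondrial acyl carrier protein, stood at −0.19 ± 0.102 (adjusted p = 0.166). Of 8 assembly factors, Ndufaf6 was higher and Ndufaf2 (−0.64 ± 0.134), Ndufaf3 (−0.37 ± 0.136) and Ndufaf4 (−0.55 ± 0.129) were lower. Ndufaf2 shares 12.2% of its 3′ windows with other genes.

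Ndufa4, named for complex I and also assigned to complex IV, was lower in experiment 2. It had 1487, 1429 and 1354 normalized counts with EGF in experiment 2, against 1801, 2291 and 2209 in experiment 1, with no overlap and a log2 fold change of −0.55 ± 0.094 (edgeR adjusted p = 1.35e-06). With NRG1 the same fold change was −0.19 (adjusted p = 0.126) and with EREG −0.24 (adjusted p = 0.043). Its paralog Ndufa4l2 was higher, with 41, 34 and 35 raw counts in EGF organoids of experiment 2, against 7, 2 and 8 in those of experiment 1 (3.03 ± 0.363).

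In complex III, 4 of 8 genes were higher and 1 was lower. Uqcrc1 was higher by 0.50 ± 0.097, Uqcrc2 by 0.44 ± 0.093 and Uqcrfs1 by 0.32 ± 0.093, all at an edgeR adjusted p of at most 0.00535. Uqcr10, a small subunit, was lower by −0.27 ± 0.089. Uqcrb was higher by 0.21 ± 0.092 and shares 22.6% of its 3′ windows with pseudogenes. In complex IV, 4 of 14 genes were higher and none was lower. Cox7a1 (0.60 ± 0.139) and Cox6a2 (2.55 ± 0.575), the muscle-type isoforms, were both among them, with only 9, 13 and 16 raw counts of Cox6a2 with EGF in experiment 2, against 6, 1 and 1 in experiment 1. The other 2 were Cox7c (0.42 ± 0.139), which shares 25.9% of its 3′ windows with pseudogenes, and Cox8a (0.22 ± 0.086).

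In the ATP synthase, 5 of 17 genes were higher and 4 were lower. In the F1 head Atp5a1 was higher by 0.45 ± 0.087 and Atp5b by 0.40 ± 0.086, and in the central stalk Atp5c1 by 0.32 ± 0.085 and Atp5d by 0.30 ± 0.087 (edgeR adjusted p of at most 0.00551). Atp5e, the third gene of the central stalk, stood at −0.10 ± 0.094 and did not pass. Atp5b had 3787, 4191 and 3832 normalized counts with EGF in experiment 2, against 3077, 2943 and 2910.2 in experiment 1. Of 4 membrane accessory subunits 3 were lower, Atp5k (−0.38 ± 0.102), Atp5mpl (−0.35 ± 0.091) and Atp5j2 (−0.29 ± 0.089), as was Atp5j of the peripheral stalk (−0.30 ± 0.087). Atp5s, which is not a subunit, was higher by 0.92 ± 0.201. Of the 3 c ring genes 0 passed. The parts of the enzyme were not tested against each other.

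The genes higher in experiment 2 had a median transcript length of 815 bases, those lower 556 bases and all 89 genes 704 bases. Over the 89 genes the Spearman correlation of length with this fold change was 0.17, and over 11622 tested protein-coding genes it was −0.03, both across genes that share libraries. Of the 21 genes with an NRF1 palindrome, 5 were higher and 3 lower, and of the 51 without one, 18 were higher and 7 lower. In the same EGF libraries, Malat1 took 0.0774 to 0.0844% of UMIs in experiment 2 and 0.0280 to 0.0404% in experiment 1. Mitochondrially encoded RNA took 0.596 to 0.604% in experiment 2 and 0.979 to 1.195% in experiment 1. Stem cell markers summed to 516 to 553 CPM in experiment 2 and 2086 to 2321 CPM in experiment 1, with 5 of 5 lower. Goblet cell markers summed to 4893 to 5452 CPM in experiment 2 and 2751 to 3206 CPM in experiment 1, with 3 of 4 higher and 1 lower. Their part in the OXPHOS values was not tested.

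**Figure D4:**
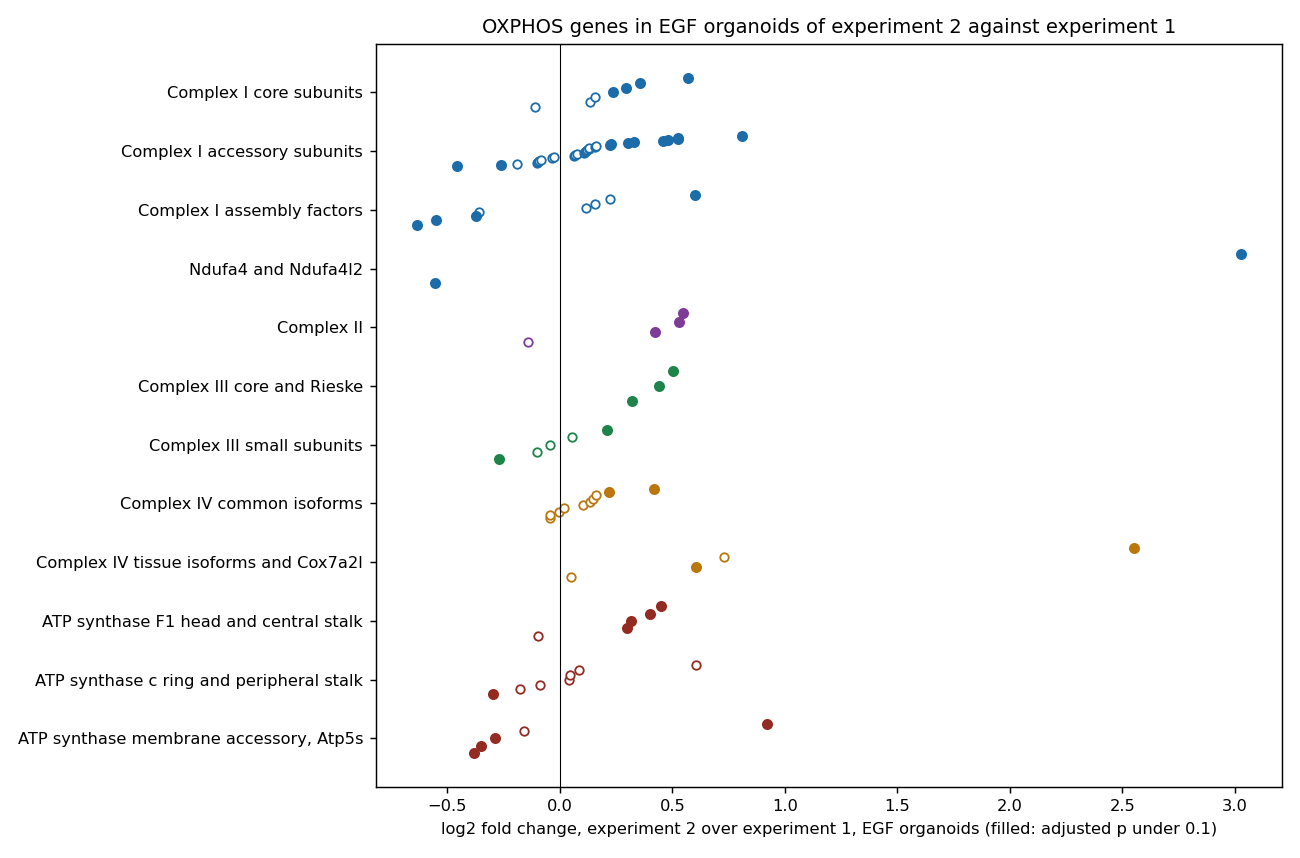
Log2 fold change of experiment 2 over experiment 1 in EGF organoids for each of the 89 OXPHOS genes, grouped by complex and by role. Filled points have an adjusted p under 0.1. The filled points of the core, head and central stalk groups lie to the right of 0, Ndufs3 and Atp5e lie to the left with open points, and the ATP synthase membrane accessory genes lie to the left.

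Other mitochondrial genes were compared for NRG1 against EGF over both experiments. In this comparison 11.3% of all tested genes passed, and 22.1% of those with a mean of at least 100 normalized counts. With NRG1, Gpd2, the glycerol-3-phosphate dehydrogenase that feeds electrons to ubiquinone, was higher (0.37 ± 0.091, edgeR adjusted p = 0.00564) among 20 chain genes outside the symbols. Of 39 other assembly factors 2 were lower, Cox20 (−0.48 ± 0.083), which assists complex IV, and Uqcc3 (−0.50 ± 0.105), which assists complex III. Of 18 tricarboxylic acid cycle genes 4 were higher, among them Pdhb (0.38 ± 0.098), Cs (0.28 ± 0.078) and Mdh2 (0.20 ± 0.073), and none was lower. Of 8 carriers and porins, Vdac1 (0.28 ± 0.083) and Vdac2 (0.39 ± 0.075) were higher.

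Of 20 regulators of mitochondrial biogenesis 3 were lower, Ppargc1a, which encodes PGC-1alpha (−0.58 ± 0.218), Esrrg (−0.97 ± 0.249) and Ppara (−0.53 ± 0.166). The calls in this and the other lists outside the OXPHOS genes were not checked by leaving out libraries or by other settings. Of 26 import and inner membrane genes 1 was lower (Phb, −0.27 ± 0.101), of 77 mitochondrial ribosomal protein genes 2 were lower, and of 81 cytosolic ribosomal protein genes 2 were higher and 1 lower. EREG against EGF over both experiments gave 0 called genes in every one of these lists, and 0.00822% of all tested genes passed. In EGF organoids of experiment 2 against experiment 1, 12 of the 18 tricarboxylic acid cycle genes were higher and 0 lower, and 9 of the 77 mitochondrial ribosomal protein genes were higher and 18 lower. Of all tested genes 17.2% were higher and 16.3% lower in that comparison. Among those with a mean of at least 100 normalized counts, 56.2% passed in either direction.

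The mitochondrially encoded mRNAs of the same complexes responded differently in the 2 experiments. Of 10 measured, 3 were lower with NRG1 over both experiments, mt-Nd1 (−0.42 ± 0.088), mt-Cytb (−0.54 ± 0.149) and mt-Nd4 (−0.38 ± 0.103), while 11.3% of all tested genes passed. The test of the difference between experiments passed for 6, these 3 among them, and for 1.45% of all tested genes. For mt-Nd1, mt-Cytb and mt-Nd4 the response of experiment 2 minus that of experiment 1 was 0.53, 0.90 and 0.75 on the log2 scale. Over the 10 mRNAs the median log2 fold change was 0.17 in experiment 2 and −0.64 in experiment 1. Over the 89 nuclear genes the same medians were −0.03 and −0.01. The nuclear and mitochondrial genes were not tested against each other.

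**Figure D5:**
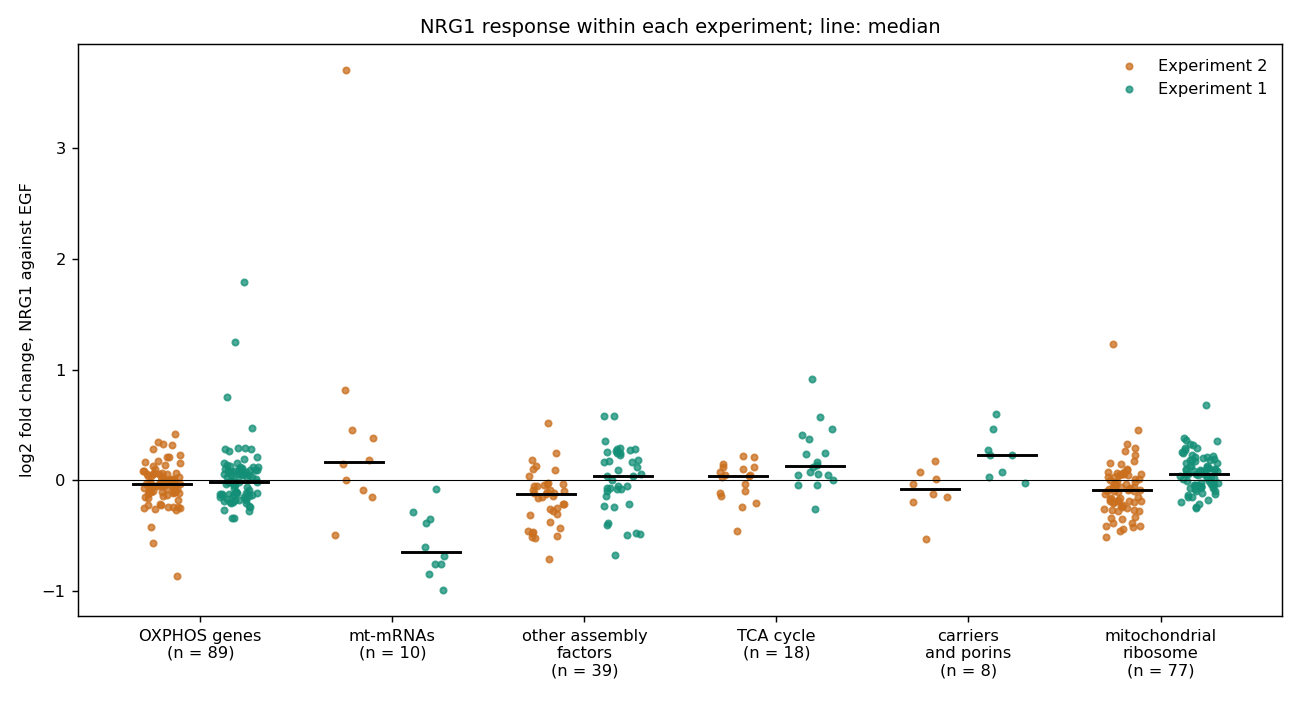
Log2 fold change of NRG1 against EGF within experiment 2 (orange) and experiment 1 (green) for the OXPHOS genes, the mitochondrially encoded mRNAs, other assembly factors, tricarboxylic acid cycle genes, carriers and porins, and mitochondrial ribosomal protein genes. Points are genes and lines medians. The OXPHOS genes lie close to 0 in both experiments, and the mitochondrially encoded mRNAs lie mostly lower in experiment 1 than in experiment 2.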

How the data were processed

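RNA of 18 organoid libraries was measured by a 3′ method with a barcoded oligo-dT primer and UMIs. Reads were mapped by the authors with STAR 2.7.8a on GRCm38. UMI counts were made with BRB-seqTools and deposited as 1 raw table, not normalized, with 1 column for each library. DESeq2 and MultiQC are also named in the submitters' processing notes, and no annotation release is named (not given in the sources used here). The sample sheet gave the ligand, experiment, replicate number and pool of each column. The labels and the study's methods name different catalogue numbers for EREG. Gene names and positions were read from GENCODE for GRCm38, with a match for 31011 of 31053 identifiers. A reporter row that is not a gene (6 counts, 2.05e-05% of all) was left out.

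The test was limited to genes with at least 5 counts over all libraries and a mean of at least 1 normalized count, and all 89 OXPHOS genes passed this filter. The 12159 remaining genes were TMM-normalized and tested with edgeR 4.0.16 (R 4.3.3, robust quasi-likelihood) on experiment, replicate number and ligand, with 12 residual degrees of freedom. The replicate term follows the study's design. Interaction and within-experiment fits used the same counts. Adjusted p-values are Benjamini-Hochberg over all tested genes, with a threshold of 0.1. The SE was derived from the F statistic, as the size of the log2 fold change over the root of F. The depth was 1311420 to 1891243 UMIs per library. The scripts were tested on simulated data.

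Genes named in the text were the called genes, the core and most abundant subunits, isoform pairs and the genes of smallest adjusted p in each list. Uqcrh-ps1, Ndufb9, Ndufb10, Ndufab1, Ndufs3, Sdhd, Atp5e and the genes named within 1 experiment or with 1 ligand were added after their values were seen. The values of 1 called gene of the other lists are not reported here. The gene set and the lists were chosen with earlier results of these data known. Alternatives covered size factors, filters, the replicate term, DESeq2 1.42.0, subsets of libraries and left-out libraries. No 2 replicates agreed within sampling noise: the chi-square statistic of their counts was 1.52 to 4.14 times its degrees of freedom in 18 comparisons.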

Additional observations from a re-analysis of the deposited data

Results flagged for a closer look

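The response to NRG1 differed between the experiments by an interaction test (edgeR, adjusted p under 0.1) in 1 OXPHOS gene and in 6 mitochondrially encoded mRNAs of the same complexes. Of all tested genes 1.45% passed. The values are log2 fold changes of NRG1 against EGF in experiment 2 minus those in experiment 1. Ndufa4l2 had −1.80. The mitochondrially encoded mRNAs all had positive differences, with mt-Nd1 at 0.53, mt-Nd2 at 0.75, mt-Nd4 at 0.75, mt-Nd5 at 0.78, mt-Cytb at 0.90 and mt-Co1 at 0.53.

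A row of the table that is not a mouse gene, a fluorescent reporter, held 6 counts over all libraries. In 39 groups of 6 libraries tested for a library standing apart by its distance from the others, 0 did. Each group held the libraries of 1 ligand from both experiments. Where the experiments differ, the range of the group is wide. The test therefore cannot show whether a library stands apart from the others of its own experiment.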

How the results depend on the processing

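For NRG1 against EGF, 4 OXPHOS genes passed. The count was 2 when every gene with at least 1 count was tested, 7 with a mean of at least 10, 8 with only the 2 ligands compared, 0 on counts summed per experiment and ligand, 0 in the pool of replicates 1 and 3 alone (added after seeing the data), and 2 at an adjusted p under 0.05 (also added). NRG1 against EREG gave 2 with only annotated subunits, 0 on summed counts and 1 in that pool. The difference between experiments gave 2 with DESeq2 size factors, 0 with only annotated subunits and 0 in that pool. Within experiment 2, NRG1 gave 3 with DESeq2 and 3 at an adjusted p under 0.05, and EREG gave 1 at that threshold. Experiment 2 against experiment 1 gave 26 in that pool. The median of EREG within experiment 1, −0.036, was −0.021 without genes with near-identical 3′ ends and −0.014 with library totals alone. The cause was not tested.

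The replicate number was a term in the models of the report, as in the study's design. Same-numbered libraries of an experiment deviated together with r of 0.085 to 0.359, over 0.1 in 17 of 18 pairs. Between the experiments, same-numbered libraries of a ligand gave r of 0.285 to 0.323 for replicate 2. For replicates 1 and 3 these values were −0.093 to 0.113, although the model over both experiments gives a number the same effect in each. No source says what else than the pool a number marks. Without the replicate block, NRG1 against EGF gave 2 called genes, the difference between experiments 0, NRG1 within experiment 1 gave 1, NRG1 within experiment 2 gave 0 and EREG within experiment 2 gave 0. With the block nested within experiment the difference between experiments gave 3. That block could not be fitted for experiment 2 against experiment 1.

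Leaving out 1 library gave 2 to 6 called genes for NRG1 against EGF, 0 to 0 for EREG against EGF, 2 to 9 for NRG1 against EREG, 0 to 2 for the difference between experiments, 2 to 12 for NRG1 within experiment 1 (2 to 5 where it moved by over 1.5 times), 0 to 13 within experiment 2 (0 to 5 where it moved by that much), 0 to 13 for EREG within experiment 2 and 36 to 43 for experiment 2 against experiment 1. The median of EREG was −0.060 to −0.016 within experiment 1 (−0.022 without EREG replicate 1) and −0.057 to 0.0064 within experiment 2. Single genes were rerun for the OXPHOS calls between ligands and for the call of the difference between experiments. For experiment 2 against experiment 1 in EGF organoids, only Ndufa6, Ndufa4l2, Ndufs7, Sdhb, Ndufa4 and Ndufa7 were rerun. None of these values changed its direction. All other calls, those of genes outside the 89 included, were not rerun gene by gene. Depth limits the 6 genes with a mean under 50 normalized counts. Among these, Atp5g2 and Atp5l also share 46.0% and 29.3% of their 3′ windows with pseudogenes or other genes.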
